A study of Mus musculus with 6 samples.

Results

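The serpins are a family of protease inhibitors measured here in primary cultures of C4HD, an ErbB-2 positive mammary tumour of female BALB/c mice. The members described were probes whose gene name in the array files starts with Serpin, other than Serpinh1 and Serping1, and control spots were left out. This gave 69 of 41174 probes, for 51 of 28786 named genes, of which 20 belong to clade A, 24 to clade B, 2 each to clades F and I, and 1 each to clades C, D and E. The tumour arose under the progestin medroxyprogesterone acetate (MPA) and was passed from animal to animal in MPA-treated mice. Tumour cells were sedimented repeatedly to deplete fibroblasts before plating, and all cultures share this origin. Then 3 cultures received 30 nM pre-miR-16, a precursor of the microRNA miR-16, and 3 received 30 nM pre-miR-Control, a precursor that yields no known mammalian microRNA. RNA was taken at 48 h after lipid transfection and hybridised to single-colour Agilent arrays. The labels call the 3 samples of a group biological replicates without saying whether they came from separate tumours, so p-values measure the spread between these samples.

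Serpins fold into a shared core with an exposed reactive loop. In the inhibitory members a protease cuts the loop, stays covalently bound and is distorted with it. Clade A members are mostly secreted, many of them by the liver. Clade B members mostly lack a signal peptide and act inside cells, and clades E and F include the secreted thrombin inhibitor Serpine2, the plasmin inhibitor Serpinf2 and the non-inhibitory Serpinf1. In mammary tissue the family is known for Serpinb5, the epithelial protein maspin.

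The introduced microRNA is shown first, because it is the only agent that differs between the groups. Its mature sequence in RefSeq, with the seed (bases 2 to 8) in capitals, is:
mmu-miR-16-5p: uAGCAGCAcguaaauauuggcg
The DNA word that pairs with this seed, TGCTGCT, was found in 224 of 41174 probe sequences (0.54%) and in 0 of the 69 serpin probes, each of which covers only 60 bases of its transcript.

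The promoters of 3 serpins that rose, 1 each from clades A, E and F, are shown next, as 250 bases before and 50 after the annotated start (RefSeq, GRCm38.p6). Capitals mark matches on either strand to a core NF-kB motif (GGG and TTTCC with any 2 bases between them), GGGCGG (a GC box) or CAGACA (a Smad motif). TGANTCA (AP-1) and TATAAA were also searched, with no match in these 3 windows, and only the matches of GGGCGG overlapped each other.
Serpina3g chr12:104235897-104236196, plus strand: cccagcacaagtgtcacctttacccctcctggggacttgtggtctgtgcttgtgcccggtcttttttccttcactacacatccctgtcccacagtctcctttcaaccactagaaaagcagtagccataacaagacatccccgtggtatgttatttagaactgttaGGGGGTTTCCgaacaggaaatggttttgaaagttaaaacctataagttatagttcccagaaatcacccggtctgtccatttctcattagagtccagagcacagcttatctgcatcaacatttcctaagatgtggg
Serpine2 chr1:79858616-79858915, minus strand: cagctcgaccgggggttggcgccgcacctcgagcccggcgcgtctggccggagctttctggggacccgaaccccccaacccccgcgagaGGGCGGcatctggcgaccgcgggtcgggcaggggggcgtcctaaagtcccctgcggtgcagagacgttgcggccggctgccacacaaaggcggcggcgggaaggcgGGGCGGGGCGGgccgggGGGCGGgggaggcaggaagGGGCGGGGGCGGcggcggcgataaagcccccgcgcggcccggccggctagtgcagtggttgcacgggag
Serpinf1 chr11:75422574-75422873, minus strand: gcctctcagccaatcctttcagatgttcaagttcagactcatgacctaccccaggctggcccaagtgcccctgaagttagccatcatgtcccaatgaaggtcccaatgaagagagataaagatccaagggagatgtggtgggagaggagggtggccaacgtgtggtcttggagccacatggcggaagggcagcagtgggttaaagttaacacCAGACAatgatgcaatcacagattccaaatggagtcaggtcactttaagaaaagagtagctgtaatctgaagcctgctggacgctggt
The Serpina3g window had 1 match to the NF-kB motif, which 1.63% of 32851 promoters hold. The Serpine2 window had 6 matches to GGGCGG, present in 35.7% of promoters, and the Serpinf1 window had 1 match to CAGACA, present in 21% of promoters. Of the 43 serpin genes with a promoter in the table, 2 held the NF-kB motif, 7 GGGCGG, 8 CAGACA, 9 TGANTCA and 15 TATAAA. Over all promoters, 7.81% held TGANTCA and 13.6% held TATAAA. A match is a description of the letters in the window only.

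Some serpins lie in clusters of close copies, so probe sequences matter for what a signal means. The probes of Serpinb9d and Serpinb9e share a run of 12 bases, in capitals, the longest shared by these 2 probes (chromosome 13, plus strand, build mm7 as in the array files).
Serpinb9d chr13:32568495-32568554: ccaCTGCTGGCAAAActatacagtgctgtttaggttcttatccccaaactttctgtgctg
Serpinb9e chr13:32625534-32625593: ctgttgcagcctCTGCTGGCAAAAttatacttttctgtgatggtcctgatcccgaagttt
Among 2328 pairs of serpin probes for different genes, the longest shared run was 15 bases, between Serpinb9d and a second Serpinb9g probe. Signals of the Serpina3, Serpinb3, Serpinb6 and Serpinb9 copies are still uncertain as to gene, because hybridisation tolerates mismatches. The Serpine2 probe crosses a gap of 2558 bases in the genome (minus strand, mm7).
Serpine2 chr1:80011225-80013842: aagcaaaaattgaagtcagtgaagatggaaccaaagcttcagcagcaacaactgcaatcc

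On the 6 arrays the 75th percentile of the signal lay between 626 and 911 units, the scanner software judged 57.2% to 64.0% of spots well above background, and it marked 0 spots as saturated. The number of arrays limits the precision. Pre-miR-Control replicate 1 had the highest share of spots well above background, and it detected 25 serpin probes against 17 on each of the other control arrays. The pre-miR-16 arrays detected 27, 28 and 26. A level is the log2 signal minus the 75th percentile of its array, and a change is the pre-miR-16 mean minus the control mean ± SE, tested with limma over all 23828 detected probes with Benjamini-Hochberg adjustment. A gene changed where its adjusted p was under 0.05. Changes depend on the scaling. With spike-in probes as the reference every change was higher by 0.38, the median over all genes moved from -0.20 to 0.18, and 77.9% of calls were rises in place of 32.7%.

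In the pre-miR-16 cultures Serpine2 and both clade F serpins were higher, and clade B was split between rises and falls. In clade F the call of Serpinf2 was lost in 13 of 22 alternative fits, and that of Serpinf1 in 0. Of 18 genes tested, 9 rose, 3 fell and 6 did not pass the test, against 15.8% of all 16703 genes that rose and 32.4% that fell. By at least 2-fold, 7 rose and 2 fell, where 10.3% and 6.84% of all genes did so. The median serpin change was 0.41, and it stayed at 0.41 with the 5 genes undetected in controls at their lower bound. These bounds all lie above the middle values, so they could not move the median. With those bounds 5 rose by at least 2-fold. Only 3 rose by at least 2-fold under normexp background correction. A single gene fell by at least 2-fold under spike-in scaling, and likewise (1) when any array other than pre-miR-16 replicate 2 was left out. The groups did not overlap for 9 genes that were higher and 3 that were lower, against 19.0% and 42.4% of all genes.

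These counts depend on how genes became testable. A gene was tested if the pre-miR-16 arrays or the control arrays all detected it, that is, read it well above background, and 7 of the 18 passed only through the pre-miR-16 arrays: Serpina10, Serpina3g, Serpinb1a, Serpinb2, Serpinb9e, Serpinb9g and Serpine2. Such genes are bound to lie higher in that group, and 79.9% of all genes of this kind rose. Of the 11 serpins well above background on all 6 arrays, 3 rose and 3 fell, with a median of -0.34, where 12.8% and 33.1% of all genes detected on all 6 arrays did so.

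**Figure D1:**
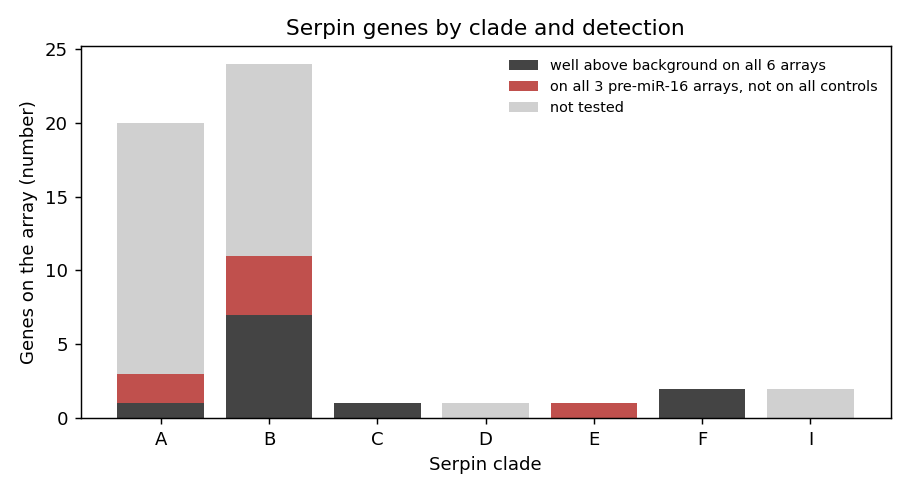
Bars count serpin genes on the array by clade, with dark grey for genes well above background on all 6 arrays, red for genes detected on all 3 pre-miR-16 arrays but not on all controls, and light grey for genes not tested. All genes counted in clades E and F were tested, and 17 of 20 clade A genes were not tested.

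By clade, 1 of 3 tested genes of clade A rose, 5 of 11 of clade B rose and 3 fell, and Serpine2 and both of clade F rose. The median change was 0.14 in clade B (the same with bounds, which all lie above it) and 2.35 in clade F. The clade F median is the mean of only 2 genes, Serpinf1 (3.996) and Serpinf2 (0.71). Within slide 1, which held 1 array of each group, the medians were 0.06 for clade A, -0.02 for B and 2.45 for F. Within slide 2 they were 0.04, 0.42 and 2.47 in the same order. Clade C had 1 tested gene, which did not pass the test, and clades D and I had none. No test between clades was run.

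**Figure D2:**
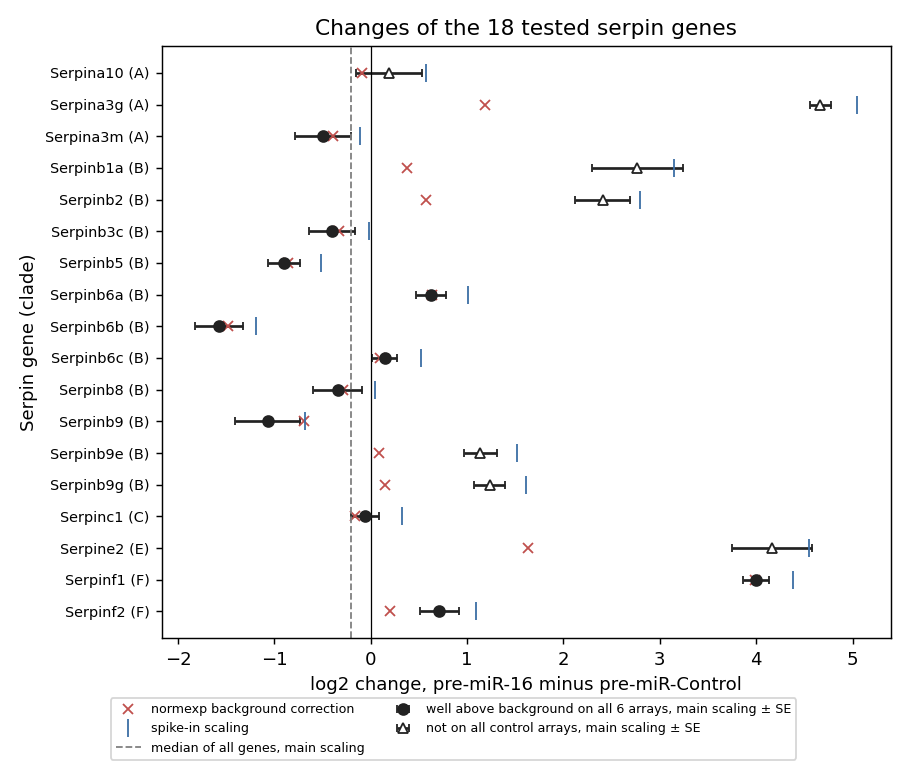
Log2 changes (pre-miR-16 minus pre-miR-Control, n = 3 arrays each) of the 18 tested serpins with their SE. Filled circles are genes detected on all 6 arrays, open triangles the others (for 5 of the 7 only a lower bound holds), crosses the change under normexp background correction, ticks the change under spike-in scaling, and the dashed line the median of all genes (-0.20). Crosses lie close to the circles of Serpinf1 and Serpinb5 and far below the triangles of Serpina3g and Serpine2.

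Markers of other cell types moved on the same arrays. For comparison with each list below, 15.8% of all 16703 genes rose and 32.4% fell. Under spike-in scaling 3661 of all genes rose and 1037 fell, and the marker counts were not repeated under that scaling. Of 20 tested fibroblast markers 18 rose and 0 fell (median 3.87), and their summed level was 8.73 to 8.95 in controls and 9.52 to 9.88 with pre-miR-16. Dcn, the brightest of the list, did not pass the test (-0.07 ± 0.13, limma, adjusted p = 0.685). It read 8.79, 8.56 and 8.68 in controls and made up most of the control sum. For macrophages and other leukocytes 13 of 17 rose and 0 fell (median 3.90), with sums of 4.22 to 4.61 and 7.75 to 8.05. Many of these, such as Adgre1, C1qa, Itgam, Msr1 and Ptprc, were tested only through the pre-miR-16 arrays. The fibroblast markers Fap, Lum and Twist2 were too, and 79.9% of all genes of this kind rose. The leukocyte median is the change of Mrc1, which no control array read well above background. Only a bound of at least 4.11-fold, tied to the processed signal, can be given for it. Under normexp the log2 change of Mrc1 was 0.89, below the log2 bound of 2.04. Basal and myoepithelial markers had 5 rises and 2 falls among 8, with sums of 7.04 to 7.41 and 8.73 to 9.24. The rises were in Acta2, Tagln, Cnn1, Mylk and Myh11, of which Mylk and Myh11 were also tested only through the pre-miR-16 arrays. The keratins Krt14 (-1.95) and Krt17 (-1.83) fell, Krt5 did not pass the test, and Trp63 and Oxtr were never well above background. Of 15 luminal markers 11 fell and 0 rose, with sums of 10.06 to 10.24 and 9.27 to 9.36, and Prom1 was never well above background. Platelet markers had 2 rises and 1 fall among 4, with sums of -1.18 to -0.52 and 4.003 to 4.47, and Gp9 was never well above background.

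Hepatocyte markers had 2 rises among 3 tested, with sums of 5.27 to 5.56 and 6.95 to 8.05, but the defining genes Ttr, Apoa1, Apoa2, Ahsg and Fga were not well above background on any array. The rises were in Hp and Apoh. Apoh was tested only through the pre-miR-16 arrays, and 79.9% of all such genes rose. Neutrophil markers had 2 rises among 3, with sums of -0.94 to -0.34 and 0.31 to 4.01, and Csf3r, Elane and Camp were not above background on any array. In the endothelial list 0 of 4 changed, with sums of 4.52 to 4.71 and 3.95 to 4.76, and Cdh5, Kdr, Tek and Tie1 were never above background. The mast cell list had 1 tested gene, Fcer1a, which fell, sums of -3.01 to -2.86 and -3.50 to -2.63, and 6 of 9 genes never above background. Fcer1a was tested only through the control arrays. The part of these cell types in the serpin results was not tested. In bulk cultures fewer cells of a type and less RNA per cell cannot be told apart.

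Among the clade F genes Serpinf1 rose 15.95-fold and Serpinf2 by less. Serpinf1 encodes pigment epithelium-derived factor, a secreted protein that limits vessel growth and does not inhibit proteases. Its brighter probe (chr11:75491640-75491699, mm7) read 2.03, 1.86 and 2.02 on the control arrays and 5.89, 6.21 and 5.79 on the pre-miR-16 arrays. Every pre-miR-16 array was far above every control, and the spread within each group was small against the gap. The mean went from 1.97 ± 0.10 to 5.97 ± 0.22 (SD, n = 3), a change of 3.996 ± 0.14 (limma, adjusted p = 1.27e-05). A second probe in the same gene (chr11:75497235-75497294) read -0.60, -0.79 and -0.55 in controls and 3.56, 4.003 and 3.35 with pre-miR-16, a change of 4.28 ± 0.18 (limma, adjusted p = 1.97e-05). Both probes therefore separated the groups without overlap.

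Serpinf2, which encodes the plasmin inhibitor of blood plasma, lies next to Serpinf1 on chromosome 11 (75513551 to 75513610). It was dim, at -4.44, -4.13 and -3.70 in controls and -3.40, -3.23 and -3.49 with pre-miR-16. The groups did not overlap, but control replicate 3 lay close to pre-miR-16 replicate 3. The change was 0.71 ± 0.20, or 1.64-fold (limma, adjusted p = 0.0273). It was 0.20 under normexp (adjusted p = 0.123) and missed the threshold in 13 of 22 alternatives. Among these were the fits that left out pre-miR-Control replicate 1 (0.54, adjusted p = 0.0575) or replicate 2 (0.69, adjusted p = 0.0828), and those that left out pre-miR-16 replicate 1 (0.72, adjusted p = 0.0713), replicate 2 (0.64, adjusted p = 0.0628) or replicate 3 (0.77, adjusted p = 0.0515).

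Serpine2 encodes protease nexin, a cell-surface inhibitor of thrombin and urokinase, and its probe sequence is shown above. It read -5.28, -6.34 and -6.91 in controls, where 1 of 3 arrays was well above background, and -2.12, -1.66 and -2.25 with pre-miR-16. Control replicate 1 was the highest control, yet still far below all pre-miR-16 arrays. The change from -6.18 ± 0.83 to -2.01 ± 0.31 was 4.17 ± 0.41 (limma, adjusted p = 6.59e-04), a difference in which 2 of the 3 control values were not well above background. Under normexp it was 1.63.

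**Figure D3:**
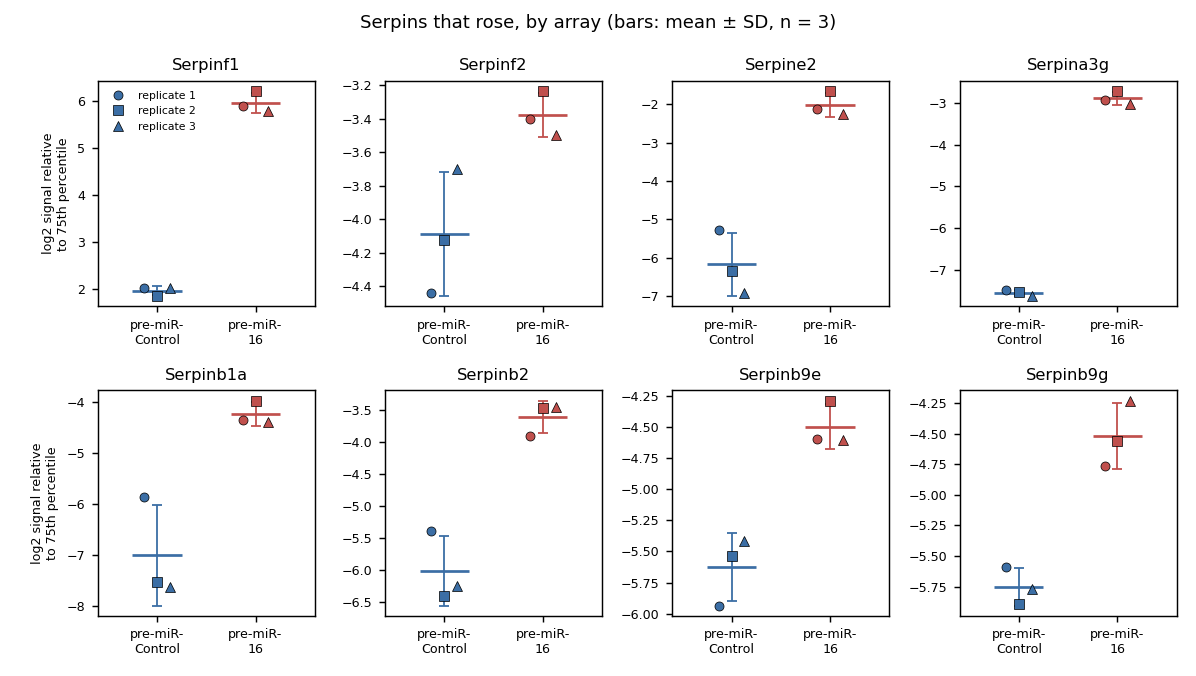
Log2 signal relative to the array's 75th percentile for 8 serpins that rose, with 1 point per array (circle, square and triangle for replicates 1, 2 and 3), and the mean with its SD (n = 3). Vertical axes differ between panels. In every panel all pre-miR-16 points lie above all control points.

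Clade A was mostly undetected, and Serpina3g was its only tested gene to rise. Serpina3g, an intracellular member that inhibits cysteine cathepsins in leukocytes, was well above background on 0 of 3 control arrays (chr12:101736157-101736216). It read -7.50, -7.53 and -7.64 in controls and -2.92, -2.72 and -3.02 with pre-miR-16. Controls were at the bottom of the scale and all 3 pre-miR-16 arrays were far above them. Here only a bound can be given: the pre-miR-16 mean of -2.89 ± 0.15, against the lowest signal of any probe well above background on the control arrays, was at least 5.55-fold higher (limma, adjusted p = 1.22e-05; measured control mean -7.55 ± 0.07). Such a bound is tied to the processed signal: under normexp the log2 change was 1.18, below the log2 bound of 2.47.

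The other tested clade A genes did not pass the test. Serpina3m, of the antichymotrypsin group, read -4.13, -3.26 and -3.88 in controls and -4.72, -3.98 and -4.05 with pre-miR-16, with overlapping groups and a change of -0.49 ± 0.29 (limma, adjusted p = 0.207). It was called only under normexp with the 75th percentile (-0.39, adjusted p = 0.0343). Its change was -0.24 without pre-miR-Control replicate 2 and -0.26 without pre-miR-16 replicate 1. Serpina10, the protein Z-dependent inhibitor of coagulation factor X, changed by 0.19 ± 0.34 (limma, adjusted p = 0.676), also with overlap. Its tested probe is annotated to a cDNA with no RefSeq gene name. The other Serpina10 probe, annotated to RefSeq, was not above background on any array.

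In clade B 5 genes rose, and 4 of these were dim in controls. Serpinb2, an inhibitor of urokinase that stays largely inside macrophages and other cells, was well above background on 0 of 3 control arrays (chr1:107424897-107424956). It read -5.39, -6.40 and -6.25 in controls and -3.90, -3.46 and -3.45 with pre-miR-16. No pre-miR-16 array overlapped the controls, and the rise was at least 3.34-fold (means -6.01 ± 0.54 and -3.61 ± 0.25; limma, adjusted p = 0.00131). A second Serpinb2 probe rose too, by 1.93 ± 0.44 (limma, adjusted p = 0.0136).

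Serpinb1a, which inhibits neutrophil elastase and related enzymes, read -5.87, -7.53 and -7.63 in controls and -4.35, -3.97 and -4.40 with pre-miR-16 (chr13:32208400-32208459). None of the controls was well above background. Control replicate 1 stood above the other controls but below every pre-miR-16 array. The rise was at least 2.17-fold (means -7.01 ± 0.99 and -4.24 ± 0.23; limma, adjusted p = 0.00484).

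Serpinb9e and Serpinb9g are mouse copies in the cluster of the granzyme B inhibitor Serpinb9, and neither was above background in controls. Serpinb9e (chr13:32625534-32625593) read -5.94, -5.54 and -5.41 in controls and -4.59, -4.28 and -4.60 with pre-miR-16, at least 1.82-fold higher (means -5.63 ± 0.27 and -4.49 ± 0.18; limma, adjusted p = 0.00309). Serpinb9g (chr13:32913116-32913175) read -5.59, -5.90 and -5.77, then -4.76, -4.56 and -4.23, at least 1.79-fold higher (means -5.75 ± 0.15 and -4.52 ± 0.27; limma, adjusted p = 0.00198). A second Serpinb9g probe was not above background on any array. At the probes given here the groups did not overlap for either gene, though all values were low. Under normexp with the 75th percentile neither was called, at 0.08 (adjusted p = 0.495) and 0.14 (adjusted p = 0.184). Serpinb9e also missed the threshold under quantile normalization (1.27, adjusted p = 0.0524), under normexp with quantile normalization (0.26, adjusted p = 0.0744) and with the series matrix values (0.26, adjusted p = 0.0778). Normexp with the 75th percentile gave 0.57 for Serpinb2 and 0.38 for Serpinb1a.

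Serpinb6a, an intracellular inhibitor of trypsin-like proteases and cathepsin G, was the rising clade B gene that was detected on all 6 arrays. A second Serpinb6a probe was not above background on any array. The tested probe read 2.68, 2.42 and 2.81 in controls and 3.32, 3.44 and 3.03 with pre-miR-16 (chr13:33336320-33336379). The groups did not overlap, but the gap between control replicate 3 and pre-miR-16 replicate 3 was narrow. The change was 0.62 ± 0.16, or 1.54-fold (limma, adjusted p = 0.0189), and 1.01 under spike-in scaling. It missed the threshold when pre-miR-Control replicate 2 (0.52, adjusted p = 0.0648) or pre-miR-16 replicate 1 (0.59, adjusted p = 0.0625) was left out, and without the filter on dim probes (adjusted p = 0.0545).

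Of the 3 falls, all in clade B, Serpinb6b was the largest. It is a close copy of Serpinb6a, on chromosome 13 from 32344418 to 32344477. Its probe read 1.78, 1.82 and 1.77 in controls and -0.06, 0.81 and -0.09 with pre-miR-16. The controls were nearly identical, and pre-miR-16 replicate 2 fell less than the other two. The mean went from 1.79 ± 0.03 to 0.22 ± 0.51, a change of -1.57 ± 0.25, or 2.98-fold lower (limma, adjusted p = 0.00369). Serpinb6b was called in all 22 alternatives run, with changes between -1.87 and -1.19.

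Serpinb5, or maspin, a non-inhibitory serpin of mammary epithelium known as a tumour suppressor, was lower with pre-miR-16 (chr1:106781864-106781923). It read 4.71, 4.80 and 4.85 in controls and 4.05, 3.53 and 4.08 with pre-miR-16. Here pre-miR-16 replicate 2 was the lowest array, and the groups did not overlap. The change was -0.90 ± 0.17, or 1.87-fold lower (limma, adjusted p = 0.00649). It was -0.65 within slide 1 and -1.30 within slide 2. Under spike-in scaling it was -0.52 and was not called (adjusted p = 0.122). The luminal list also fell in part on the 75th percentile scale (11 of 15), where 32.4% of all genes fell.

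Serpinb9, the inhibitor of granzyme B, gave different results at its 2 tested probes. The brighter probe (chr13:32381607-32381666) read -2.82, -2.16 and -2.57 in controls and -3.87, -2.87 and -4.01 with pre-miR-16. The gap between the groups was small, and pre-miR-16 replicate 2 lay nearest to the controls. The change was -1.07 ± 0.33 (limma, adjusted p = 0.0397). The other probe read -3.32, -3.26 and -3.05 and then -3.27, -2.61 and -3.20, with overlap and a change of 0.19 ± 0.20 (limma, adjusted p = 0.463). The call at the brighter probe was lost in 10 of 22 alternatives, among them spike-in scaling (-0.69, adjusted p = 0.123), slide as a fixed block (-0.74, adjusted p = 0.0602) and each fit without 1 array other than pre-miR-16 replicate 2 (adjusted p from 0.0527 to 0.121).

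Other clade B genes did not pass the test. Serpinb6c, another copy near Serpinb6a, changed by 0.14 ± 0.13 (limma, adjusted p = 0.397). Serpinb8, an intracellular inhibitor of furin, changed by -0.34 ± 0.25 (limma, adjusted p = 0.301), with pre-miR-16 replicate 2 at -2.94 and the other pre-miR-16 arrays at -2.21 and -1.99. Its controls lay between -2.18 and -1.86, and its second probe changed by 0.15 ± 0.30 (limma, adjusted p = 0.707). Serpinb3c, of the squamous cell carcinoma antigen group, changed by -0.41 ± 0.24 (limma, adjusted p = 0.212). This Serpinb3c probe is annotated to a cDNA with no RefSeq gene name, and the RefSeq probe was not above background on any array. In clade C, Serpinc1, the plasma inhibitor antithrombin, changed by -0.06 ± 0.15 (limma, adjusted p = 0.741).

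**Figure D4:**
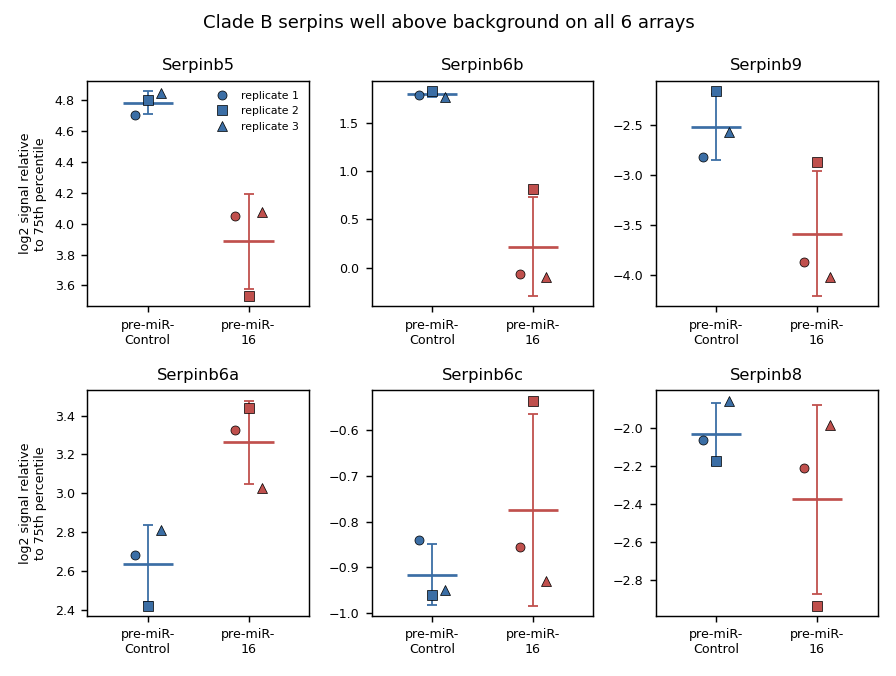
Log2 signal relative to the array's 75th percentile for 6 clade B serpins detected on all 6 arrays, with 1 point per array (circle, square and triangle for replicates 1, 2 and 3), and the mean with its SD (n = 3). Vertical axes differ between panels. Serpinb5, Serpinb6b and Serpinb9 are lower with pre-miR-16, Serpinb6a is higher, and Serpinb6c and Serpinb8 overlap between the groups.

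The remaining 33 genes did not pass the filter on dim probes, and 17 of them had no probe well above background on any array. These were Serpina1b, Serpina3a, Serpina3c, Serpina3f, Serpina3n, Serpina6, Serpina7, Serpina12, Serpinb1b, Serpinb3a, Serpinb3b, Serpinb7, Serpinb9b, Serpinb10, Serpinb13, Serpind1 and Serpini2. A further 16 were well above background on some arrays, without all 3 of a group: Serpina1d, Serpina1e, Serpina1f, Serpina3b, Serpina3k, Serpina4-ps1, Serpina5, Serpina9, Serpina11, Serpinb1c, Serpinb3d, Serpinb9c, Serpinb9d, Serpinb11, Serpinb12 and Serpini1. Of these, Serpina1f, Serpinb9d and Serpini1 were detected on 2 of 3 pre-miR-16 arrays and on 0 control arrays. Nothing follows from this about whether these genes are expressed.

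Replicates of the pre-miR-16 group were not alike in the size of the differences. Replicate numbers follow the scanner files: in the series matrix the columns labelled replicates 1 and 2 each followed the other's scanner file more closely (Spearman correlation across probes 0.999, against 0.985 with its own), so which of the 2 cultures is replicate 2 is uncertain. Among the 9 serpins that rose, replicate 2 lay farthest from the control mean in 7, and replicate 3 in 2. Among the 3 that fell, replicate 2 lay nearest to the controls in 2, Serpinb6b and Serpinb9, and farthest in Serpinb5. On those arrays replicate 2 had the highest summed level of the fibroblast list, at 9.88, and of the macrophage list, at 8.05, and their part in this order was not tested.

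Among genes of the pathways in which serpins act, 54 were tested over 6 lists, and 18 (33.3%) rose and 15 (27.8%) fell. Over all genes 15.8% rose and 32.4% fell, with a median change of -0.20. As with the serpins, some of the rises were in genes tested only through the pre-miR-16 arrays: Tfpi2, F10, F13a1, Thbd, Tfpi, Ctsw and Reck. Of all genes of this kind 79.9% rose. Likewise, the falls of Cpb2 and Tmprss11e were in genes tested only through the control arrays. When all 6 arrays had to be above background, 12 genes of the lists rose and 13 fell. Of all 15054 genes tested under that filter 1982 rose and 5104 fell. In plasminogen activation, 2 of 9 tested genes rose and 4 fell (median -0.30). Plau, which encodes urokinase, a protease that Serpine2 can inhibit, read 2.68, 2.80 and 2.87 in controls and -0.02, 1.13 and 0.23 with pre-miR-16, so that all 3 pre-miR-16 arrays were below the controls. It changed by -2.34 ± 0.29 (limma, adjusted p = 0.00162). Lrp1, the endocytic receptor that clears serpin and protease complexes, rose by 2.25 ± 0.22 (limma, adjusted p = 6.49e-04). Tfpi2, a Kunitz inhibitor of plasmin, was not well above background in controls and rose at least 12.8-fold (means -6.19 ± 0.52 and -1.68 ± 0.17; limma, adjusted p = 6.43e-05). Vtn, the matrix protein vitronectin, was never well above background.

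In the list of thrombin and coagulation 7 of 13 rose and 2 fell (median 1.29). F3, or tissue factor, which starts coagulation, fell (-1.73 ± 0.12, limma, adjusted p = 1.53e-04). F13a1, the subunit of the fibrin-crosslinking factor made by macrophages, rose at least 9.51-fold (means -7.25 ± 0.13 and -2.11 ± 0.34; limma, adjusted p = 1.29e-05). F10, the zymogen of the protease that activates prothrombin, rose at least 1.74-fold (limma, adjusted p = 1.94e-04).

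Cysteine cathepsins, which Serpina3g can inhibit, had 6 rises and 3 falls among 10 (median 0.89). Ctsk, a collagen-degrading cathepsin, rose by 4.21 ± 0.30 (limma, adjusted p = 1.64e-04), Ctss, of antigen-presenting cells, by 4.18 ± 0.34 (limma, adjusted p = 3.00e-04) and Ctsf by 2.10 ± 0.16 (limma, adjusted p = 2.04e-04). Genes of the leukocyte granule protease list, only some of them targets of Serpinb1a, Serpinb6a or Serpinb9, were mostly undetected. Of its 19 genes 2 were tested, 10 were never above background, and Gzmm, a granzyme, fell (-0.69 ± 0.14, limma, adjusted p = 0.00873).

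Epithelial serine proteases and kallikreins had 1 rise and 3 falls among 13 (median -0.33), where 15.8% of all genes rose and 32.4% fell. Htra1, a secreted serine protease, rose by 1.53 ± 0.14 (limma, adjusted p = 4.69e-04), and the membrane proteases Tmprss4 (-2.37 ± 0.28, limma, adjusted p = 0.00129) and Prss8 (-1.05 ± 0.13, limma, adjusted p = 0.00149) fell. Inhibitors outside the serpin family had 2 rises and 2 falls among 7 (median -0.21). Reck, a membrane-anchored inhibitor, rose at least 3.17-fold (means -7.52 ± 0.13 and -3.69 ± 0.07; limma, adjusted p = 1.22e-05), Slpi, a secreted inhibitor of elastase, by 1.22 ± 0.11 (limma, adjusted p = 4.51e-04), and Wfdc18 changed by -0.75 ± 0.23 (limma, adjusted p = 0.0392). Under normexp the log2 changes of the dim genes were smaller: 1.80 for Tfpi2, 1.56 for F13a1, 0.71 for Reck, 0.36 for F10, 1.22 for Ctsf and -1.50 for Tmprss4. For Tfpi2, F13a1, Reck and F10 they lay below the log2 bounds (3.68, 3.25, 1.67 and 0.8), which are tied to the processed signal. Over the lists, scaling on the spike-ins gave 20 rises and 5 falls in place of 18 and 15, and 8 genes fell when pre-miR-Control replicate 2 or replicate 3 was left out.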

How the data were processed

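Per the file headers, spot intensity was processed by the authors in Agilent Feature Extraction, version 9.5.3.1, which subtracts background and removes trends within an array but does not normalize between arrays. The raw mean and local background intensity values in the deposited files served for normexp (offset 50). The deposited series matrix holds log2 values, and the sources used here do not give their normalization. Coordinates are mm7 (NCBI35), per the file headers.

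With R 4.3.3 and limma 3.58.1, control and outlier spots were left out, each array's 75th percentile was subtracted on the log2 scale, and the spots of a probe were averaged. A probe was kept if a share of 0.5 or more of its spots was marked well above background in every array of either group, which left 23828 of 41174. lmFit and eBayes compared the groups, with Benjamini-Hochberg adjustment over these probes, and each gene was read at its brightest kept probe. With 3 arrays a group an exact permutation test could not go below p = 0.1, and none was run. Members and lists were chosen with earlier results of these data known. One gene that the member rule selects is not reported here and was left out of the member counts. Serpins with a kept probe were named, those past 2-fold array by array, with up to 3 called genes of smallest p per protease or inhibitor list, and further probes where their call or direction differs. The code was tested on simulated data. Slide 1 held replicate 1 of both groups and slide 2 replicate 2 of both with control replicate 3, while pre-miR-16 replicate 3 was alone on slide 3. Same-numbered replicates did not deviate together (correlations -0.09, -0.04 and -0.002). The 17 planned choices gave 22 alternatives.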

Additional observations from a re-analysis of the deposited data

How the results depend on the processing

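Of 22 alternatives, 16 changed the processing and 6 left out 1 array. The counts of all serpins that rose fell to 3 when all 6 arrays had to be above background (by at least 2-fold to 1, clade A to 0, clade B to 1 and clade E to 0), by construction, since fewer genes were tested. Under normexp with the 75th percentile 3 rose and 1 fell by at least 2-fold, clade B had 3 rises and clade A 1 fall. Normexp with quantile normalization and the series matrix values also gave 3 rises and 1 fall by at least 2-fold, and the mean of a gene's probes and an adjusted p under 0.01 also gave 1 fall by at least 2-fold. Spike-in scaling left 1 serpin fall, in clade B and past 2-fold, and 5 falls in the protease and inhibitor lists. Without the filter on dim probes clade A had 1 fall. Clade F had 1 rise in 8 of the 16 settings that changed the processing. These were quantile normalization, median centring, both normexp settings, the matrix values, no filter, the replicate block and an adjusted p under 0.01. With the fits that left out 1 array, Serpinf2 was not called in 13 of 22 alternatives. The lists had 8 falls with quantile normalization, no filter or an adjusted p under 0.01, and 9 with the replicate block, against 15. For these counts the cause was not tested.

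The signs of 3 genes that were not called turned: Serpinb8 to 0.039 and Serpinc1 to 0.32 under spike-in scaling, Serpinc1 to 0.037 without pre-miR-16 replicate 2 (range without 1 array -0.19 to 0.037), and Serpina10 to -0.10 under normexp with the 75th percentile and -0.16 without pre-miR-Control replicate 3 (range -0.16 to 0.43). Leaving out 1 array gave 7 to 9 serpins that rose and 2 to 3 that fell, 6 to 7 and 1 to 2 by at least 2-fold, 1 to 1 rises in clade A, 4 to 5 rises and 2 to 3 falls in clade B, 1 to 1 rises in clade E, 1 to 2 in clade F, and 18 to 19 rises and 8 to 16 falls in the lists, with 8 without pre-miR-Control replicate 2 or 3. With the replicate block, which rests on numbers only, 7 serpins rose and 3 fell, and Serpinb6a (0.62, adjusted p = 0.0602) and Serpinf2 (0.71, adjusted p = 0.0525) were not called in limma. With slide as a fixed block, to which pre-miR-16 replicate 3 adds nothing as the lone array of its slide, 9 rose and 2 fell. Dim control signals limit the fold of 7 serpins, and 3 arrays a group limit the rest.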

Other observations

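Some serpins that did not pass the filter on dim probes still read differently between the groups, and these were chosen after their values were seen. Serpinb9d, another copy of the granzyme B inhibitor, read -7.39, -7.15 and -7.31 in controls and -4.42, -4.47 and -4.72 with pre-miR-16, and 2 of 3 pre-miR-16 arrays were well above background. Serpini1, or neuroserpin, an inhibitor of tissue plasminogen activator, read -6.77, -5.64 and -7.08 in controls and -4.74, -4.69 and -5.04 with pre-miR-16, with 2 of these 3 well above background. Serpina5, the inhibitor of activated protein C, went the other way at 1 of its probes, at -5.43, -5.73 and -4.59 in controls and -7.41, -7.31 and -7.10 with pre-miR-16. That probe was well above background on 1 control array only, and the other Serpina5 probe was not above background on any array. With no filter on dim probes, 3 of the 33 serpins left out by it were called: Serpinb9d (2.74, limma, adjusted p = 1.97e-04) and Serpini1 (1.67, limma, adjusted p = 0.034) rose and Serpina5 fell (-2.02, limma, adjusted p = 0.00981). These log2 differences include values not well above background, so their size is uncertain.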
